A study of Mus musculus with 27 samples.

Results

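Inositol phosphates are small soluble messengers built on a sugar ring. Phospholipase C releases inositol trisphosphate (IP3) from a membrane lipid, and IP3 opens calcium channels in the endoplasmic reticulum. Kinases then add phosphates in steps up to inositol hexakisphosphate (IP6, or phytate), a binder of calcium that slows the growth of calcium phosphate crystals, and IP6 kinases go further to the inositol pyrophosphates, which are tied to cellular phosphate balance. The genes examined here were 10 named enzymes of this route around Itpk1, a gene of the Rin3 locus, among 37991 genes in all. They were 8 kinases (Itpka, Itpkb and Itpkc, which phosphorylate IP3, Itpk1, Ipmk and Ippk, which build up to IP6, and Ip6k1 and Ip6k2, which act on IP6) and 2 phosphatases (Inpp1, which acts on the lower inositol phosphates, and Minpp1, which removes phosphates from IP6 and other highly phosphorylated forms). They were chosen by name, and all 10 were matched by their Ensembl identifiers.

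The cells came from calvariae, the bones of the skull vault, of neonatal C57BL/6J-Col3.6 CFP mice aged 5 to 9 days, which carry a cyan fluorescent protein driven by the Col3.6 collagen promoter fragment. After 4 days of growth, fluorescent cells were sorted, returned to culture and differentiated with ascorbic acid and 4 mM beta-glycerol phosphate, and RNA was collected on days 2, 4, 6, 8, 10, 12, 14, 16 and 18. All cultures had the same genotype and medium, so that day is the sole labelled variable. Whether animals were pooled is not given in the sources used here. Each day had 3 profiles, 27 in all, but these carried 1 barcode in 3 sequencing lanes and differed by no more than sampling noise (chi-square per degree of freedom of 0.999 to 1.02 over genes with whole counts, with p between 0.0513 and 0.537), so they were counted as 1 sample per day. There was therefore no biological replicate at any day, and day cannot be told apart from differences between single cultures or libraries. A spread between profiles covers sequencing and quantification only, and p-values measure the scatter of 9 libraries around a fitted curve.

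Estimated counts summed to between 22470195 and 62009157 per day. The osteoblast label was checked against 10 markers, all of which were detected, with a summed level of 2045 TPM (transcript abundance per length, scaled to the same total in each profile) on day 2 that had reached 5228 TPM by day 18. Col1a1, the main collagen of bone, stood at 1526 and 4263 TPM on those days, and Bglap, which encodes osteocalcin, at 1.24 and 208 TPM. Markers of other cell types were also detected. The summed level of 7 monocyte and macrophage markers was 24.1, 190, 451 and 2014 TPM on days 2, 10, 12 and 18. In the line in day described below 6 of these 7 rose, against 28.3% of all genes tested. The 5 adipocyte markers summed to 7.44, 19.8, 103 and 407 TPM on days 2, 10, 12 and 18, and 5 of 5 rose. The 7 osteoclast markers summed to 37.6 and 212 TPM on days 2 and 18 with Calcr and Dcstamp at 0 counts. Of these sums, Ctsk alone made up 36.5 and 193 TPM. The 7 lymphocyte markers stayed at or under 1.14 TPM with Cd3e and Cd3g among those at 0 counts. The 6 endothelial markers summed to 3.24 and 8.87 TPM on days 2 and 18 with Tie1 at 0 counts. The 6 neuron markers summed to 35.4, 65.0 and 27.9 TPM on days 2, 6 and 18 with Gad1 at 0 counts, and Stmn2 alone made up 34.2, 62.0 and 24.1 TPM. In such mixed RNA, a change in the number of cells of a type and a change in RNA per cell cannot be told apart.

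Levels are given as TPM, which is per length and so allows genes to be compared, after division by the upper quartile of each profile. The 10 genes together held 88.1 and 99.9 TPM on days 2 and 18 and at most 106 TPM, on day 12. Averaged over the 9 days, their order was Minpp1 (24.8 ± 6.04 TPM, SD over days), Ip6k1 (18.1 ± 5.07), Ip6k2 (15.0 ± 2.61), Itpkb (10.1 ± 3.63), Ipmk (9.34 ± 1.28), Inpp1 (7.94 ± 1.74), Itpkc (4.80 ± 1.41), Ippk (3.89 ± 0.887), Itpk1 (1.75 ± 0.757) and Itpka (0.103 ± 0.155). Not all neighbours in this order were separated by their spread. Minpp1 was above Ip6k1 on 7 of 9 days, Itpkb above Ipmk on 6, Ipmk above Inpp1 on 7 and Itpkc above Ippk on 6, while Ip6k1 was above Ip6k2, Ip6k2 above Itpkb, Inpp1 above Itpkc and Ippk above Itpk1 on 8 of 9 each. Itpk1 was above Itpka on 9 of 9 days. With 1 TPM taken as the threshold of expression, 8 of the 10 genes were expressed at every day, Itpk1 at 7 days and Itpka at 0.

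**Figure D1:**
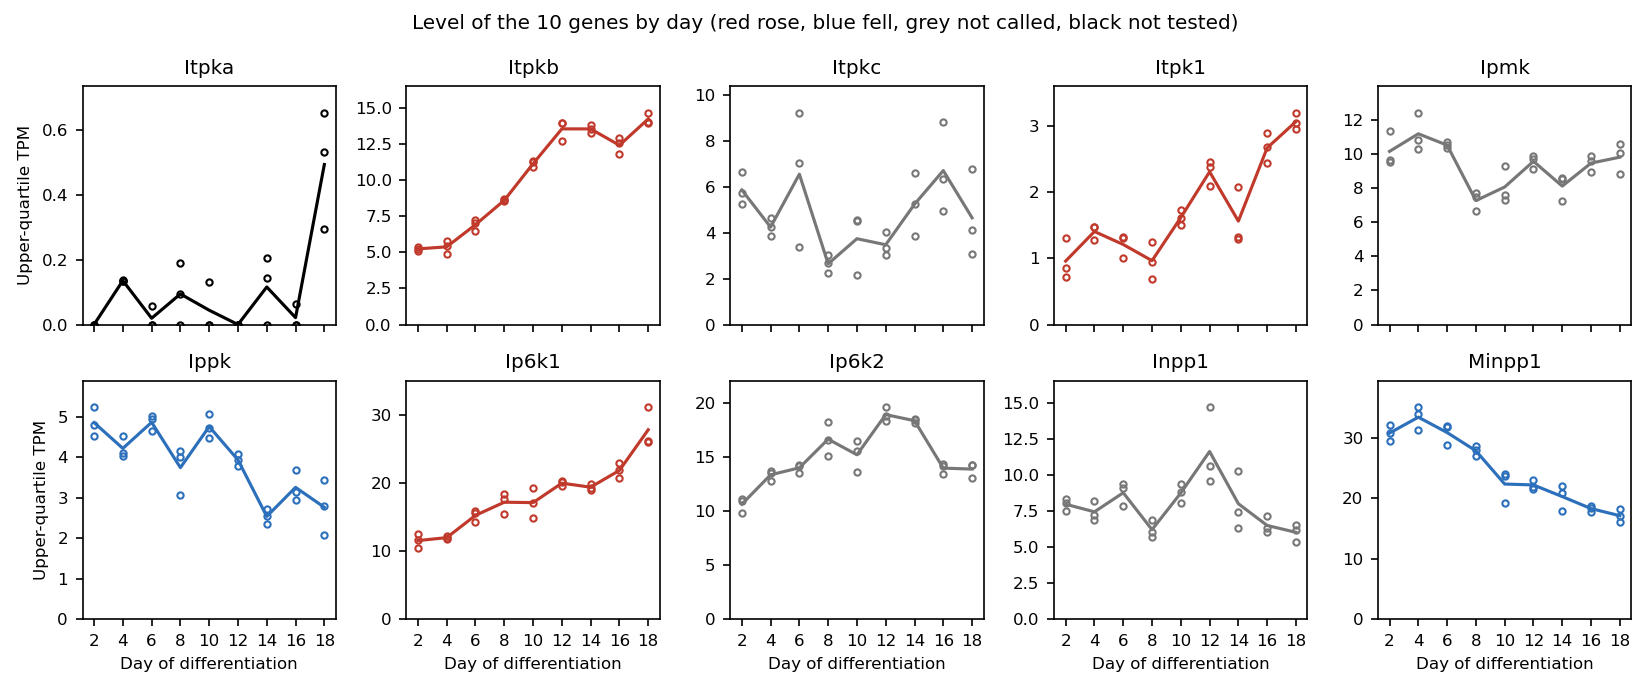
Level of each of the 10 genes (upper-quartile normalised TPM, linear axes from 0) against day of differentiation. Circles are the 3 lane profiles of a day and lines join their means. Itpk1, Itpkb and Ip6k1 climb, Ippk and Minpp1 decline, and Ip6k2 is highest on day 12, at 18.9 TPM.

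The comparison over days asks which of these enzymes change with time in differentiation culture. In a straight line in day fitted to the summed counts of the 9 days over 15659 genes, Itpk1, Itpkb and Ip6k1 rose and Ippk and Minpp1 fell, while Ipmk, Ip6k2, Itpkc and Inpp1 did not pass an adjusted p of 0.05 and Itpka was too low to be tested. Thus 5 of the 9 genes tested (55.6%) were called, against 54.3% of all genes tested. Rises made up 28.3% of all genes and falls 26.1%. The share of called genes in the list is close to this background, and the median fitted log2 change was -0.22 over the 9 genes and 0.05 over all genes. On days 2 to 12 alone 3 of the 9 rose (23.1% of all genes) and 2 fell (20.3%), 43.4% of all genes being called, but they were Itpkb, Ip6k1 and Ip6k2, and Minpp1 and Itpkc.

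Among the kinases that phosphorylate IP3, Itpkb rose in the line. Its level was 5.23, 5.37, 6.90, 8.59, 11.1, 13.5, 13.5, 12.4 and 14.2 TPM on days 2, 4, 6, 8, 10, 12, 14, 16 and 18. It was flat to day 4, climbed until day 12 and then stayed between 12.4 and 14.2 TPM, so that every day from day 10 onward lay above every day up to day 8. Along the line, day 18 was 1.51 log2 units above day 2 (standard error, SE, 0.21), a 2.84-fold rise (Benjamini-Hochberg adjusted p = 0.000272 by edgeR). On days 2 to 12 alone, the line rose by 1.39 between days 2 and 12 (edgeR adjusted p = 0.000535). Between those days the monocyte and macrophage markers also went from 24.1 to 451 TPM in sum, and the adipocyte markers from 7.44 to 103 TPM. The part of monocytes, macrophages and adipocytes in the rises of Itpkb, Itpk1 and Ip6k1 was not tested. All reads of Itpkb were assigned to its long transcript, as its effective length, the length open to fragments weighted by isoform, was 5956 bases in every profile.

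Itpkc, the more widely expressed relative of Itpkb, had its lowest level, 2.65 TPM, on day 8 and its highest, 6.72 TPM, on day 16 and changed direction several times. Its CPM, the count scaled to the library total, was 7.14, 7.38, 7.00, 5.34, 4.58, 4.84, 4.50, 6.33 and 6.43 on days 2 to 18 in order. This dip was shallower than in TPM and lowest on day 14 rather than on day 8. Its effective length was 2921 bases on day 8 and 1420 bases on day 14. The fitted log2 change was -0.22 (SE 0.26, edgeR adjusted p = 0.503), and a curve in day, a natural spline with 3 degrees of freedom, gave an adjusted p of 0.0533. The curve passed with TMM factors (0.0307), with DESeq2 (0.0223), without day 16 (0.0374) and without replicate 3 (0.0329). On days 2 to 12 alone, Itpkc fell by 0.65 on the log2 scale (edgeR adjusted p = 0.0420). Of the TPM of the 3 IP3 3-kinase genes, Itpkb held 47.1%, 79.5% and 73.4% on days 2, 12 and 18. The ratio of Itpkb to Itpkc was 0.890, 3.88 and 3.05 on those days. Its 3 profiles gave 0.764 to 0.996, 3.43 to 4.17 and 2.06 to 4.56, so the share on day 18 is imprecise. The share and the ratio rest on TPM, into which the effective length of Itpkc enters.

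Itpka, the form known from neurons, was near the limit of detection. It had 0 counts on days 2 and 12, which allows up to 0.0710 CPM and 0.0484 CPM (3 counts of the total). It had 6, 1, 3, 1, 5 and 1 counts on days 4, 6, 8, 10, 14 and 16. Day 18 stood apart with 20 counts, or 0.450 CPM (95% Wilson interval 0.291 to 0.695), of 37 counts in all. Its interval overlapped that of day 4 (0.142 CPM, 0.0650 to 0.309) and lay above the upper limits on days 2 and 12. These intervals cover counting error only and compare libraries chosen as highest and lowest.

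Itpk1, which acts on inositol trisphosphate and tetrakisphosphate isomers on the way to IP6, lies on the minus strand of chromosome 12 (103806793 to 103943079, NCBIM37) and has 1 transcript in the files. Its level was 0.958, 1.40, 1.21, 0.964, 1.61, 2.31, 1.56, 2.67 and 3.06 TPM on days 2 to 18 in order. It stayed at or under 1.40 TPM up to day 8 and was above that on each later day, with a setback on day 14, when its 3 profiles had an SD of 0.441 TPM. Few reads stood behind these values, from 51 counts on day 8 to 213 on day 12, and its CPM was 1.70 (95% Wilson interval 1.35 to 2.14) on day 2 and 4.77 (4.17 to 5.45) on day 18. Along the line Itpk1 changed by 1.43 log2 units (SE 0.32), a 2.70-fold rise (edgeR adjusted p = 0.00377). The call did not hold on days 2 to 12 alone, where the line gave 0.88 between days 2 and 12 (edgeR adjusted p = 0.100). Over the same 16 days the slopes came to 1.41 on those days and 1.43 on all days, so the slope was nearly as steep with 6 libraries but did not pass. The spline test gave an adjusted p of 0.0122, of 0.0695 without day 18 and of 0.124 on days 2 to 12 alone.

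Ipmk, the multikinase that acts on several lower inositol phosphates, was lowest on day 8, at 7.26 TPM, and highest on day 4, at 11.2 TPM. Its counts were 680 and 1439 there, and days 8 to 18 were all lower in TPM than days 2 to 6. The line change of -0.39 log2 units did not pass (SE 0.19, edgeR adjusted p = 0.102) but did without day 8 (-0.43, edgeR adjusted p = 0.0468). With days 14 to 18 set against days 2 to 6, the log2 difference was -0.38 (edgeR adjusted p = 0.0304).

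Ippk, which adds the last phosphate of IP6, fell. Its level was 4.86, 4.22, 4.87, 3.75, 4.76, 3.94, 2.54, 3.26 and 2.77 TPM on days 2 to 18 in order. The drop lay late, since days 14 to 18 were all below days 2 to 12. The line gave -0.91 log2 units (SE 0.25), so that day 18 was at 0.532 of day 2 (edgeR adjusted p = 0.00973). On days 2 to 12 alone the change was -0.28 and did not pass (edgeR adjusted p = 0.377), with a shallower slope of -0.44 over 16 days. The spline test gave an adjusted p of 0.0344, which rose to 0.0667 without day 2, 0.0783 without day 6, 0.0560 without day 12, 0.0927 without day 18, 0.0765 without replicate 2 and 0.663 on days 2 to 12 alone. Itpk1 and Ippk thus moved apart, and the ratio of their TPM went from 0.197 on day 2 to 0.585 on day 12 and 1.11 on day 18, when the 3 profiles gave 0.859 to 1.47.

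Of the IP6 kinases, which make the pyrophosphate IP7, Ip6k1 rose. Its level was 11.6, 12.0, 15.3, 17.2, 17.2, 20.0, 19.4, 21.9 and 27.9 TPM on days 2 to 18 in order, and its CPM was 28.0 on day 2 and 49.6 on day 18. Every day from day 6 onward was above days 2 and 4. In counts the line gave 0.95 log2 units (SE 0.12), a 1.93-fold rise (edgeR adjusted p = 0.000124), and days 2 to 12 alone gave 0.77 (edgeR adjusted p = 0.00238). The step in TPM between days 2 and 18 was larger, 2.41-fold, and the effective length that enters TPM was 3525 and 2955 bases on those days. Reads of Ip6k1 were partly shared with other genes, and its counts were whole numbers in 21 of 27 profiles.

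Ip6k2, on the same chromosome 9, followed another course. Its level was 10.6, 13.3, 14.0, 16.6, 15.2, 18.9, 18.3, 13.9 and 13.9 TPM on days 2 to 18 in order, a climb to days 12 and 14 followed by a return. The line gave 0.17 log2 units (SE 0.23, edgeR adjusted p = 0.559). The spline passed, with an adjusted p of 0.0337, as it did for 57.5% of all 16256 genes tested, and for 9.11% of genes the spline passed and the line did not. This call was fragile, since the adjusted p was 0.124 without day 2, 0.0678 without day 4, 0.0529 without day 6, 0.0558 without day 8, 0.113 without day 12 and 0.0669 without day 14. It was also lost with TMM factors (0.0615), with no filter beyond 1 count per gene (0.0702), with DESeq2 (0.0676) and on days 2 to 12 alone (0.105). On days 2 to 12 alone Ip6k2 rose in the line, by 0.55 on the log2 scale (edgeR adjusted p = 0.0226). The ratio of Ip6k1 to Ip6k2 lay between 0.901 and 1.13 up to day 14 and was 1.57 on day 16 and 2.01 on day 18.

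Minpp1, the phosphatase that acts on IP6, was the highest of the 10 genes up to day 14 and fell. Its level was 30.8, 33.5, 30.9, 27.9, 22.4, 22.2, 20.3, 18.3 and 17.1 TPM on days 2 to 18 in order. After day 4 each day was at or below the one before it, and every day up to day 8 was above every later day. Its counts were deep, from 792 on day 10 to 2205 on day 4, and its CPM was 49.7 (95% Wilson interval 47.6 to 51.9) on day 2 and 24.3 (22.9 to 25.8) on day 18. The line gave -1.11 log2 units (SE 0.11), so that day 18 was at 0.465 of day 2 (edgeR adjusted p = 4.71e-05), and days 2 to 12 alone gave -0.69 (edgeR adjusted p = 0.00506).

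Ip6k1 and Minpp1, both of which act on IP6, crossed in level. The ratio of Ip6k1 to Minpp1 in TPM was 0.375, 0.617, 0.957 and 1.63 on days 2, 8, 14 and 18, above 1 on days 16 and 18, and the profiles of day 18 gave 1.44 to 1.95. By contrast, the ratio of Ippk, which makes IP6, to Minpp1 stayed between 0.125 and 0.213, with 0.158 on day 2 and 0.161 on day 18. These ratios are descriptions of RNA levels and carry no test.

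**Figure D2:**
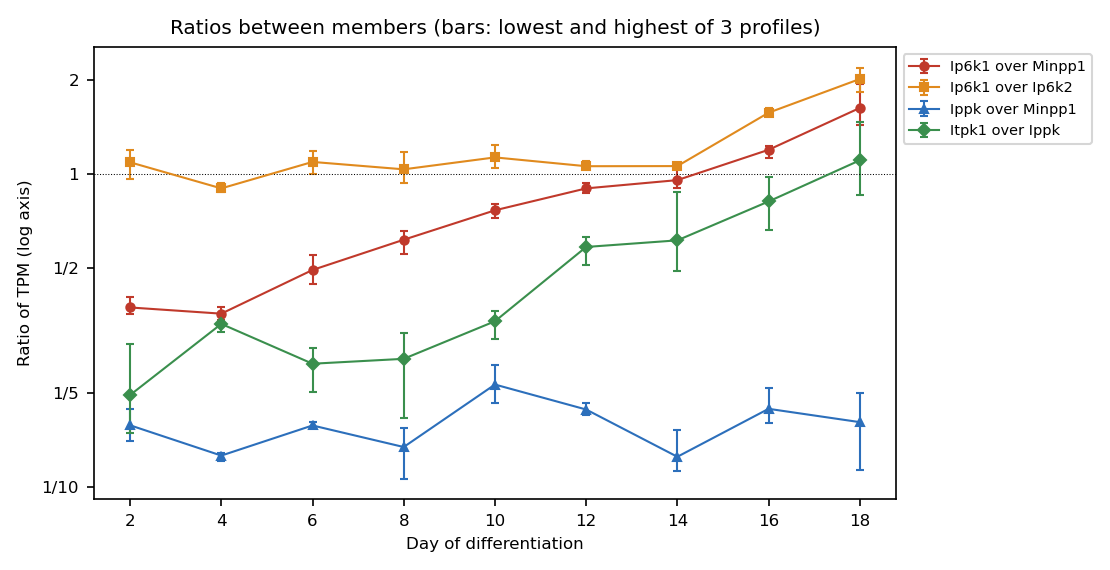
Ratios of upper-quartile TPM between pairs of the genes by day, on a log axis, with bars from the lowest to the highest of the 3 lane profiles. Ip6k1 over Minpp1 passes 1 between days 14 and 16, Itpk1 over Ippk reaches 1.11 on day 18, Ip6k1 over Ip6k2 departs from 1 on days 16 and 18, and Ippk over Minpp1 stays between 0.125 and 0.213.

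Inpp1, which removes a phosphate from lower inositol phosphates, was at 7.99, 11.7 and 6.04 TPM on days 2, 12 and 18. The high value on day 12 was not seen in its CPM, which was 6.26 on that day against 7.12 on day 2, and the effective length was lowest there, at 954 bases. The fitted log2 change was -0.28 (SE 0.19, edgeR adjusted p = 0.251), and the spline did not pass either (adjusted p = 0.412).

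**Figure D3:**
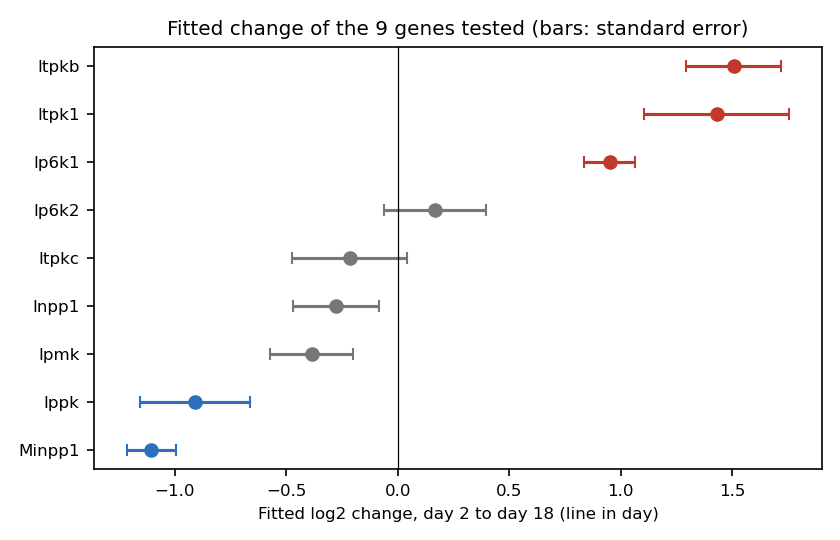
Fitted log2 change from day 2 to day 18 in the straight line in day for the 9 genes tested, with standard errors. Itpkb (1.51), Itpk1 (1.43) and Ip6k1 (0.95) in red rose, Minpp1 (-1.11) and Ippk (-0.91) in blue fell, and the 4 in grey were not called.

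The effective length is a second readout that the counts do not hold, since it moves with the mix of isoforms to which RSEM assigns the reads. It was constant for Itpk1, Itpka, Itpkb and Minpp1 and nearly so for Ippk. Itpkc varied most, 2.06-fold, with 1420 bases on day 14 and 2921 bases on day 8, between a coding transcript of 3247 bases and shorter ones down to 576 bases. Inpp1 varied 1.48-fold, Ip6k1 1.26-fold, Ipmk 1.17-fold and Ip6k2 1.12-fold. For Ip6k2 the length was highest on day 2, at 1353 bases, and lowest on day 18, at 1212 bases. Profiles of the same library differed by up to 1717 bases for Itpkc on day 10, 799 bases for Ip6k1 on day 8 and 773 bases for Ipmk on day 10, which for each of these genes was wider than the range of the day means. For Ip6k1, 3 of the 10 transcripts listed in the files were found in the annotation used here.

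**Figure D4:**
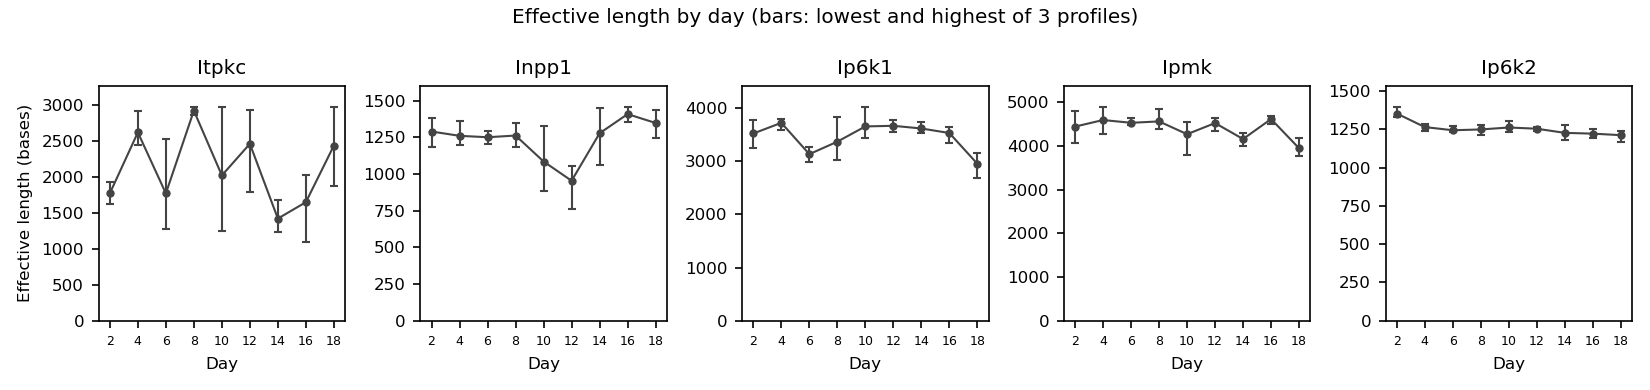
Effective length in bases by day for the 5 genes whose length varied, as the mean of 3 lane profiles with bars from the lowest to the highest. For Itpkc and Ipmk on day 10 and Ip6k1 on day 8 the bar spans more than the day means do, whereas Ip6k2 is highest on day 2.

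The start regions of the 5 genes that rose or fell are shown to set their sequence beside their course. They are RefSeq windows of 300 bases (250 before and 50 after the annotated start, GRCm38.p6, a later build than that of the files), read along the gene. Capitals mark matches on either strand to the GC box GGGCGG, the CCAAT box CCAAT, the TATA box TATAAA or the RUNX motif TGTGGT, which are held by 35.7%, 37.4%, 13.6% and 16.8% of 32851 windows. The first 3 are of genes that rose: Itpk1 (chr12:102704820-102705119, minus strand), Ip6k1 (chr9:108002398-108002697, plus strand) and Itpkb (chr1:180330226-180330525, plus strand). The last 2 are of genes that fell: Minpp1 (chr19:32485519-32485818, plus strand) and Ippk (chr13:49420992-49421291, plus strand, the first of 2 annotated starts).
Itpk1: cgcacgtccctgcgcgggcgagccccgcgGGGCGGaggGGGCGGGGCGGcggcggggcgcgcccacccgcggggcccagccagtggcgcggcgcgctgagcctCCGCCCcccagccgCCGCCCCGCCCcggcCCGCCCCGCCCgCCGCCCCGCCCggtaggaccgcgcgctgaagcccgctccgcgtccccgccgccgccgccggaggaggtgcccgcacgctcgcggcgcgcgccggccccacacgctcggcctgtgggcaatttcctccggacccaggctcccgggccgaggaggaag
Ip6k1: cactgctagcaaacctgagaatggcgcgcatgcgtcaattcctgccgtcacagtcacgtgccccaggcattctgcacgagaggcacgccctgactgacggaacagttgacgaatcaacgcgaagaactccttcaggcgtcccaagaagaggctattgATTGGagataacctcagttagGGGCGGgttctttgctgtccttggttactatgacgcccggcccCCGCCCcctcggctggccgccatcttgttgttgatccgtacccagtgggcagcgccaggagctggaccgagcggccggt
Itpkb: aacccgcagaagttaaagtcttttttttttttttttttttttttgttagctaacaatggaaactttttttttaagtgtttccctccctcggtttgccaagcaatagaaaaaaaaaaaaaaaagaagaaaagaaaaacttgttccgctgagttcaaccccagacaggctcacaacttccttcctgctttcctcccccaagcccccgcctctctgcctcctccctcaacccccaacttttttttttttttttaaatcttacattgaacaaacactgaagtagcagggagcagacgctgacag
Minpp1: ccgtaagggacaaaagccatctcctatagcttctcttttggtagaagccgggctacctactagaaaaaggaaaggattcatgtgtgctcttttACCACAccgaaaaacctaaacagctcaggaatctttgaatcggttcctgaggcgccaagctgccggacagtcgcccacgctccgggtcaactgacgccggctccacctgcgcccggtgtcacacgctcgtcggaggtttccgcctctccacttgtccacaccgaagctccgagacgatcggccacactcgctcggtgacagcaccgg
Ippk: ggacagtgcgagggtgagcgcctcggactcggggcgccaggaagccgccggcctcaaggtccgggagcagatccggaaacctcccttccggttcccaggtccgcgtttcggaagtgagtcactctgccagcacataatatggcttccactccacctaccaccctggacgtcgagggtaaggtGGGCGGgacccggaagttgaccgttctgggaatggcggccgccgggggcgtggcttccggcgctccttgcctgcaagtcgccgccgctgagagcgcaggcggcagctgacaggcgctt
The 3 genes that rose shared none of the 4 motifs. The window of Itpk1 held 10 GC boxes, some of them overlapping, with a GC content of 85.3%, above that of 99.9% of all windows. Ip6k1 held 2 GC boxes and 1 CCAAT box at 60.0% GC, and Itpkb held none of the motifs at 39.3% GC, a content above that of 8.92% of windows. Among the genes that fell, Minpp1 held 1 RUNX match and the window of Ippk shown 1 GC box, while that of its other start (chr13:49421364-49421663) held 1 GC box and 1 RUNX match. A match says only that these letters are present.

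The genes whose course was most like that of Itpk1, by Pearson's r of log2(CPM + 0.5) over the 9 days among 7619 genes with a mean of at least 10 TPM, were Bsdc1 (r = 0.974, Spearman's rho = 0.967), Eif2ak1, the heme-regulated kinase of translation initiation (0.972 and 0.983), Cr1l, a complement regulator (0.951 and 0.967), 2610301B20Rik (0.950 and 0.933) and Cox4nb (0.950 and 0.983). The 9 points share their libraries and the passage of days, and the 5 genes were picked as the highest of many, so these values are descriptions.

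Around these enzymes, 54 further genes were listed by their presumed role in inositol phosphate metabolism. Of these, 47 could be tested, and 16 rose, 14 fell and 17 were not called in the line (63.8% called, against 54.3% of all genes). Among 10 phospholipase C genes tested, 4 rose and 3 fell (70% called). Plcb4, the highest at 42.9 ± 4.86 TPM (SD over 9 days), fell by 0.45 on the log2 scale, and Plcg1, at 19.2 ± 4.14 TPM, rose by 0.71 (edgeR adjusted p = 0.00748 and 0.00213). Larger changes were those of Plce1, which rose by 2.96 (2.37 and 13.4 TPM on days 2 and 18), of Plcg2 (1.04), a form known from blood cells, and of Plch1, which fell by 3.11 at a mean of 0.309 TPM (edgeR adjusted p = 0.000441, 0.0418 and 0.0192). Plch1 did not fall steadily, with 0.205, 0.734 and 0.141 TPM on days 2, 6 and 18 and its highest level on day 6. On days 2 to 12 alone its log2 change was -0.61 and did not pass (edgeR adjusted p = 0.682). Plcz1, the sperm form, had 2 counts in all. Of the IP3 receptors, the calcium channels opened by IP3, Itpr1 (0.56) and Itpr2 (0.58) rose and Itpr3 (-0.52) fell (edgeR adjusted p = 0.0411, 0.00504 and 0.0200). Itpr1 was at 9.85, 17.7, 21.4 and 18.7 TPM on days 2, 4, 14 and 18. Most of the difference between its end days thus lay between days 2 and 4.

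Of 6 tested enzymes of the pyrophosphates outside the 10 genes, 1 rose and 2 fell (50% called, against 54.3% of all genes). Nudt4, a phosphatase that degrades pyrophosphates, was at 71.1 ± 10.6 TPM (SD over 9 days) and fell by 0.54 on the log2 scale, while Nudt3, at 23.8 ± 2.29 TPM, had a change of -0.22 (edgeR adjusted p = 0.00715 and 0.194). Ppip5k1 and Ppip5k2, which add a further phosphate to IP7 and were singled out after their values were seen, went in opposite directions, with log2 changes of 0.89 and -0.88 (edgeR adjusted p = 0.00172 and 0.000416). Ppip5k2 was the higher of them, at 15.5 and 9.99 TPM on days 2 and 18, against 5.46 and 7.01 TPM for Ppip5k1.

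Of 13 tested phosphatases of inositol phosphates or lipids, 6 rose and 3 fell (69.2% called, against 54.3% of all genes). Inpp5b, at 31.8 ± 5.58 TPM (SD over 9 days), had a change of 0.14 (edgeR adjusted p = 0.380). Rises of at least 1 log2 unit were those of Inpp5k (2.29-fold), Inpp4b (5.94-fold) and Inpp5d (26.5-fold), with edgeR adjusted p = 0.000534, 0.000388 and 0.00150. Inpp5d encodes SHIP1, known from blood cells, and was at 0.737, 0.296 and 2.55 TPM on days 2, 10 and 18, but lowest on day 8, at 0.013 TPM, so that day 2 lay above each of days 4 to 14. Its rise and that of Plcg2 stand beside that of the monocyte and macrophage markers, whose part was not tested. Inpp5j had 3 counts in all.

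In the list made for the supply of inositol, 2 of 7 tested genes rose and 2 fell (57.1% called, against 54.3% of all genes). Slc5a3, the sodium-dependent importer of myo-inositol, rose by 1.36 on the log2 scale, with 19.4 and 44.9 TPM on days 2 and 18, and Cdipt, which joins inositol to the membrane lipid, fell by 1.12, from 25.0 to 12.8 TPM (edgeR adjusted p = 0.000659 and 0.000214). Impad1, the highest of this list at 56.6 ± 8.71 TPM (SD over 9 days), had a change of 0.37 (edgeR adjusted p = 0.0823). Whether Impad1 acts in the supply of inositol was not tested. Miox and Slc5a11 had 0 counts in all profiles. Of 8 genes whose proteins bind higher inositol phosphates, 1 rose and 3 fell (50% called). Adarb1, an RNA-editing enzyme with IP6 in its core, rose by 2.85 from 0.742 to 6.07 TPM, Cops2, at 142 ± 17.9 TPM, fell by 0.54 along the line although day 2 was its lowest day in TPM (118 on day 2, 172 on day 8 and 127 on day 18), and Cul4a, at 110 ± 13.4 TPM, had a change of -0.30 (edgeR adjusted p = 6.52e-05, 0.0140 and 0.0522).

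**Figure D5:**
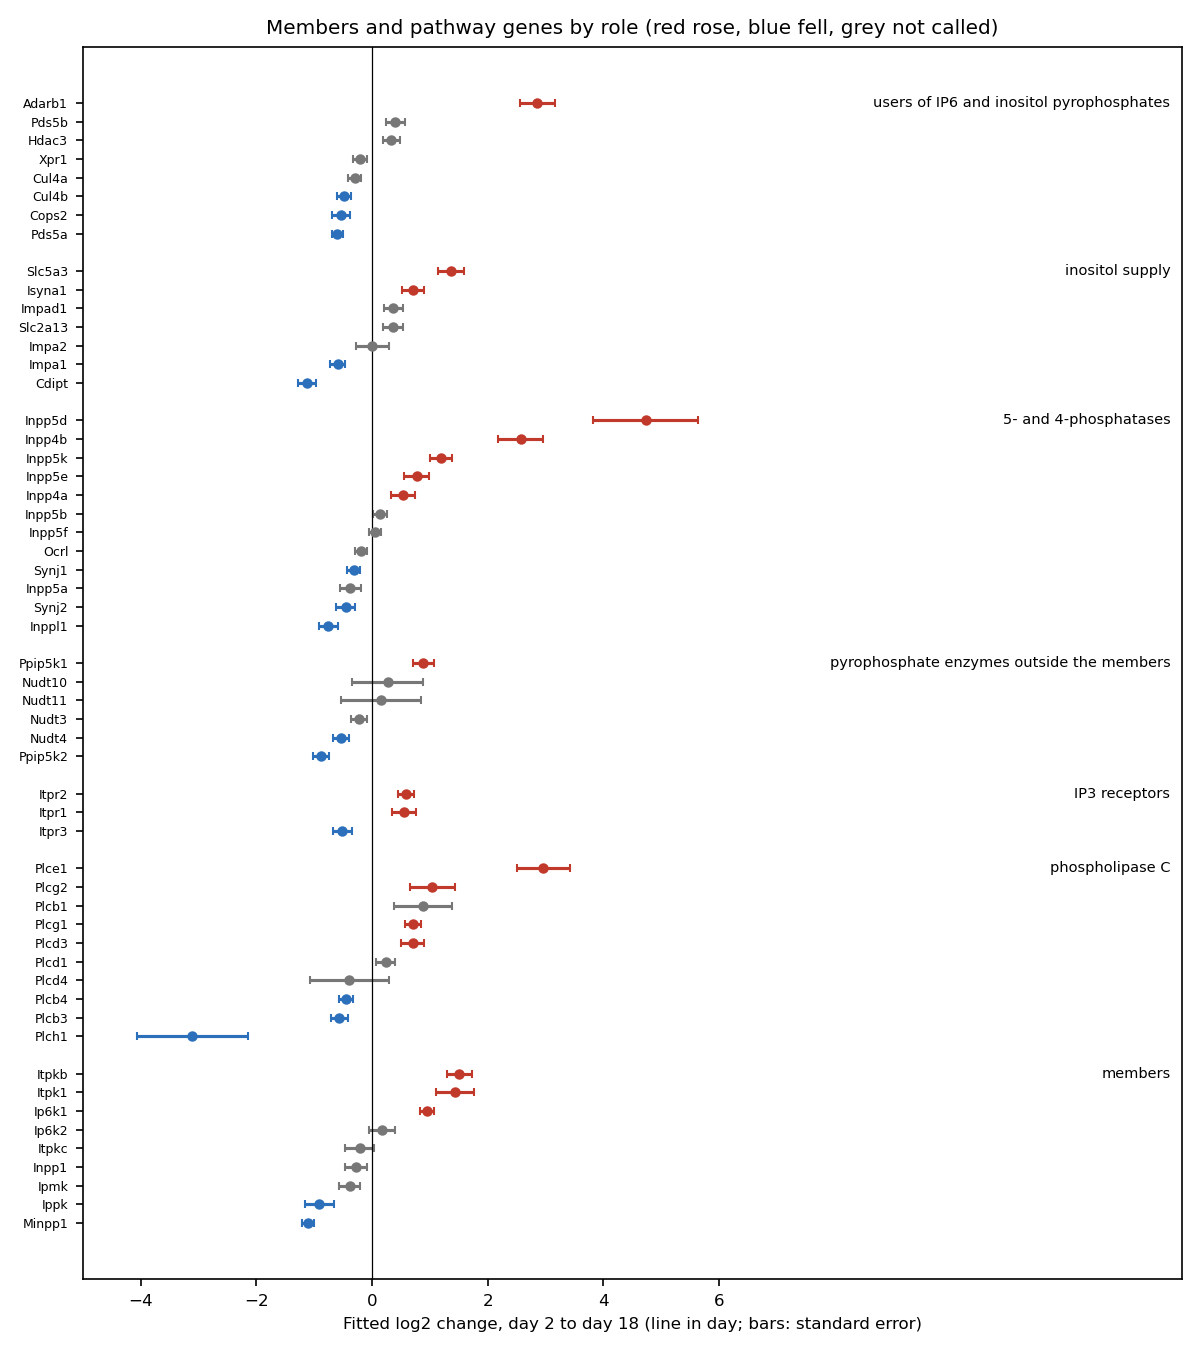
Fitted log2 change from day 2 to day 18 with standard errors for the 9 tested genes of the list (members) and tested genes of the wider pathway, grouped by role. Red genes rose, blue genes fell and grey genes were not called. Genes that rose and genes that fell are drawn in each role group, from -3.11 for Plch1 to 4.73 for Inpp5d. Plch1 was low throughout and highest on day 6, at 0.734 TPM, so its value is not that of a steady fall. Inpp5d was at 0.737, 0.013 and 2.55 TPM on days 2, 8 and 18, so its value is not that of a steady rise.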

How the data were processed

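RNA sequencing of 27 profiles, 3 lanes for each of 9 days, was used. Per the labels, the authors amplified the complementary DNA, aligned reads to NCBIM37 transcripts by Bowtie 0.12.9 and estimated gene levels by RSEM (1.2.8 in the labels, another version in the methods). The values deposited by the authors are estimated counts without normalization, TPM, FPKM, and lengths and effective lengths in bases, which RSEM weights by isoform. Isoform assignment and shared reads can therefore move TPM apart from counts.

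Of 37991 identifiers, 37205 had a symbol in GENCODE's NCBIM37 annotation. Each profile's TPM was divided by its 75th percentile above 0 and multiplied by the mean of these percentiles, a factor of 0.933 to 1.11. Counts were summed per day and rounded. The line and the spline in day were fitted with edgeR 4.0.16 in R 4.3.3 (quasi-likelihood test with upper-quartile factors, genes kept by filterByExpr at 10 counts, Benjamini-Hochberg adjustment over all genes tested). Both were tried on simulated counts with 200 changed genes and a scatter set in advance. The line recovered 70% of changes of 1 log2 unit and 93% of 2 log2 units, with 7.39% of calls false. The spline recovered 56% and 90%, with 4.6% of calls false. The total was 22470195 to 62009157 counts per day, and intervals and floors of 3 counts cover counting error only. Alternatives were TMM factors, other filters, a robust fit, DESeq2 1.42.0, limma 3.58.1 on log2(TPM + 0.5), days 14 to 18 against days 2 to 6, profiles as separate samples, days or replicates left out, no mitochondrial ribosomal RNA genes, other thresholds, TPM or FPKM as deposited and, chosen after seeing the data, days 2 to 12 alone.

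The genes named were the 10 members and, of each role group, the 2 highest by mean TPM, those past an adjusted p of 0.05 with a log2 change of at least 1 and those with fewer than 10 counts. Some genes that the rule or the lists hold are counted but not reported here by name. Members and lists were chosen with earlier results of these data known.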

Additional observations from a re-analysis of the deposited data

How the results depend on the processing

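The 3 rises and 2 falls among the 10 genes were found in count under each alternative except the fits with 27 profiles as separate samples, which gave 4 falls both without and with the replicate block, and the fits without day 8 and with days 14 to 18 against days 2 to 6, which gave 3. In the block fits Ipmk (-0.39, adjusted p = 0.00210 from edgeR) and Inpp1 (-0.28, adjusted p = 0.0266 from edgeR) were added. Profiles with the same number did not deviate together (mean correlation 0.00566 against -0.00283 for different numbers), so the numbers pair nothing, and those profiles are not independent libraries. Itpk1 and Ippk passed in each of 22 alternatives set with the design, with log2 changes of 0.96 to 1.63 and -1.01 to -0.72, and not on days 2 to 12 alone (1.41 and -0.44 over 16 days, against 1.43 and -0.91), where the 3 rises were Itpkb, Ip6k1 and Ip6k2 and the 2 falls Minpp1 and Itpkc. Itpkb, Ip6k1 and Minpp1 passed in all 23. The sign turned for Ip6k2 without day 2 (-0.015, adjusted p = 0.969 from edgeR) and for Itpkc with limma on TPM (0.045, adjusted p = 0.936). The spline called 6 of the 9 genes in the main fit, against 57.5% of all genes. Under the alternatives it called 4 to 9 of them, against 40.2% to 88.7% of all genes. The 9 came from the fits with 27 profiles as separate samples, where 88.7% and 87.8% of all genes were called. Falls in the wider pathway numbered 8 with limma on TPM and 8 on days 2 to 12 alone, against 14, where fewer libraries entered the second and the cause of the first was not tested. Of all genes tested, 37.6% to 77.7% followed the line. Between 6 and 9 of the 10 genes were expressed at every day under the other thresholds and units. Depth limits Itpk1 and Itpka most.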
